A study of Homo sapiens with 6 samples.

Results

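The transcripts of 35 aminoacyl-tRNA synthetase genes were measured in K562 cells, a Bcr-Abl-positive line derived from chronic myeloid leukemia. The members were 19 genes for cytosolic enzymes and 16 genes for mitochondrial enzymes, taken by name, out of 19049 genes with a symbol in the deposited table. RNA-seq libraries were prepared from K562 cells stably infected with a lentivirus that expresses either an shRNA against the lncRNA named lncRNA-IIRX in the labels (sh-lncRNA-IIRX, the sh-IUR-5 line of the study, n = 3) or an shRNA against luciferase (sh-luc, n = 3). No other treatment, allele or agent separated the groups, and no imatinib was named for them. For the RNA-seq the study names 3 independent groups of K562 cell lines with the shRNA, and control cells. Whether the libraries of 1 shRNA come from 1 infected line or several is not spelled out in the sources used here. The shRNA and the history of a line cannot be told apart. The table counted reads on protein accessions, so the level of the targeted lncRNA was not analysed here.

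Aminoacyl-tRNA synthetases join each amino acid to its own tRNA, and the charged tRNA then carries it to the ribosome. The cytosol and the mitochondrion use separate sets of enzymes that are almost all encoded by different nuclear genes. GARS1 and KARS1 serve both compartments and were kept with the cytosolic set, and EPRS1 charges both glutamate and proline. Several cytosolic enzymes are held together with 3 scaffold proteins in the multisynthetase complex. By their folds the enzymes fall into class I and class II. Many cytosolic members are known targets of ATF4, the transcription factor of the amino acid response, which binds C/EBP-ATF response elements.

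The core of that element, TGATGNAA, was searched for on either strand in the 250 bases before the RefSeq start site of each gene (GRCh38.p14). A promoter was listed for 30 of the 35 members, and 4 of them (13.3%) held a match, against 126 of 7358 promoters of the genes tested (1.7%) and 1061 of 27305 promoters in all (3.9%). The matches lay in AARS1, GARS1, IARS1 and the mitochondrial YARS2. Among the cytosolic members listed as ATF4 targets, 3 of 10 promoters (30%) held it, and among the other cytosolic members 0 of 6 did. The 28 bases around each match are shown on the strand of the gene because they are the letters behind these counts, with the motif or its reverse complement, TTNCATCA, in capitals, and that of ASNS, asparagine synthetase and a standard ATF4 target, for comparison.

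AARS1, chr16:70289676-70289703, minus strand: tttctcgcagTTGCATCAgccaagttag
GARS1, chr7:30594835-30594862, plus strand: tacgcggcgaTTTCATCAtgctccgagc
IARS1, chr9:92293698-92293725, minus strand: cgcattttcagcgcgTTGCATCAcctcc
YARS2, chr12:32756077-32756104, minus strand: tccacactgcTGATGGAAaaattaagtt
ASNS, chr7:97872459-97872486, minus strand: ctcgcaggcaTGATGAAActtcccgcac

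The match began 13 bases before the start site in IARS1, 33 in GARS1, 68 in ASNS, 187 in AARS1 and 197 in YARS2. Of the 4 members with a match, IARS1 was higher in sh-IUR-5 cells, while AARS1, GARS1 and YARS2 did not pass the test described next (log2 fold changes of -0.14, -0.10 and 0.011). Of the ATF4 response genes taken up below, only ASNS and CHAC1 had a match, so ASNS does not stand for that list. How many of them had a listed promoter was not counted. A match describes these letters and is not a measured binding site.

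The libraries held between 21023739 and 31481109 reads, and the 3 sh-IUR-5 libraries were deeper than the 3 sh-luc libraries. Each member was read from the table row with the most reads, and the groups were compared with edgeR after TMM scaling, which sets the libraries level on the bulk of the rows, over 38204 rows. Levels are given as scaled RPKM, the reads on a row divided by its deposited length and by the TMM-scaled size of the library, in the units of RPKM, so that genes can be compared per length. The 9 K562 markers were all detected, and 2 of them rose and 5 fell with the knockdown (77.8%, against 45.9% of all genes). Their summed RPKM was 20147 to 22520 in sh-luc and 15988 to 16678 in sh-IUR-5 libraries, chiefly fetal and embryonic hemoglobin. Of 6 markers of other blood cells, 2 (MS4A1 and MPO) had no read and the others stayed at or below a mean of 0.316 RPKM, with sums of 0.309 to 0.820 in sh-luc and 0.204 to 0.534 in sh-IUR-5 libraries.

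All 35 members passed the minimum level, a mean of 1 RPKM. With all rows of a gene summed, the cytosolic enzymes had a median of 87.9 RPKM in sh-luc cells, from 33.0 for CARS1 to 210.0 for KARS1, the lysyl enzyme. The mitochondrial enzymes had a median of 16.6 RPKM, from 1.59 for MARS2 to 69.4 for IARS2. Such sums depend on how reads that fit several rows of a gene were counted, which is not given in the sources used here. The cytosolic rows took 0.389% ± 0.01 (SD, n = 3) of all reads in sh-luc and 0.434% ± 0.0116 in sh-IUR-5 libraries, and the mitochondrial rows 0.0690% ± 0.000623 and 0.0827% ± 0.00116. These shares are not TMM-scaled.

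**Figure D1:**
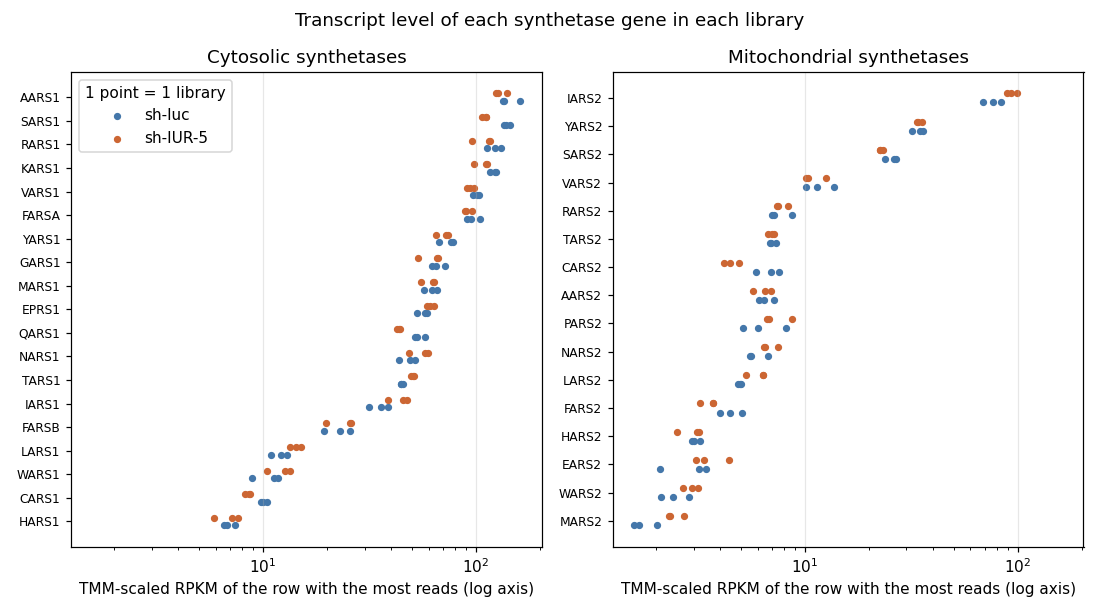
TMM-scaled RPKM (log axis) of the most-read row of each cytosolic (left) and mitochondrial (right) synthetase gene, ordered by the sh-luc mean. Each point is 1 library, blue for sh-luc and orange for sh-IUR-5 (n = 3 each). In most genes the colors intermix, as in RARS1, and in 13 of the 35 genes they do not overlap, as in SARS1 and CARS2.

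The 3 most abundant single rows were AARS1, SARS1 and RARS1, by the mean RPKM of all 6 libraries. AARS1, the alanyl enzyme, had 162, 136 and 134 scaled RPKM in sh-luc replicates 1 to 3 and 140, 125 and 127 in the sh-IUR-5 replicates. RARS1, the arginyl enzyme of the complex, had 113, 132 and 123 in sh-luc and 96.4, 115 and 117 in sh-IUR-5 libraries. In both genes the groups overlapped, and neither passed the test (log2 fold changes of -0.14 and -0.16, adjusted p of 0.183 and 0.135). KARS1 lay close to them, with 117, 125 and 123 in sh-luc and 97.9, 113 and 112 in sh-IUR-5 libraries, and its adjusted p was 0.0733 although the groups did not overlap. SARS1 is described below.

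Of the 35 synthetase genes, 10 (28.6%) passed an adjusted p of 0.05, 5 higher and 5 lower with the knockdown. Of all 8871 genes tested with 1 row each, 45.9% passed, 22.4% higher and 23.5% lower. The members' share stayed below that of all genes in each alternative fit, but the gap between these shares depended on the fit. DESeq2 gave 17.1% of the members against 39.1% of all genes, and the shares lay closer in the following fits. With a term for the labelled library series 51.4% of the members and 56.4% of all genes passed, with scaling to total reads 48.6% and 51.3%, and with GC and length trends removed and the replicate number as a block 45.7% and 50.8%. The absolute log2 fold change had a median of 0.17 for the synthetases and 0.28 for all genes, with median standard errors of 0.089 and 0.11. None of the 35 changed by 2-fold or more, as 1.79% of all genes did. The median log2 fold change was -0.013 for the members and -0.0072 for all genes. The groups did not overlap in 13 members (37.1%), the 10 that passed and KARS1, TARS1 and SARS2, and in 54.3% of all genes. In bulk RNA, fewer cells that express a gene and less RNA per cell cannot be told apart.

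**Figure D2:**
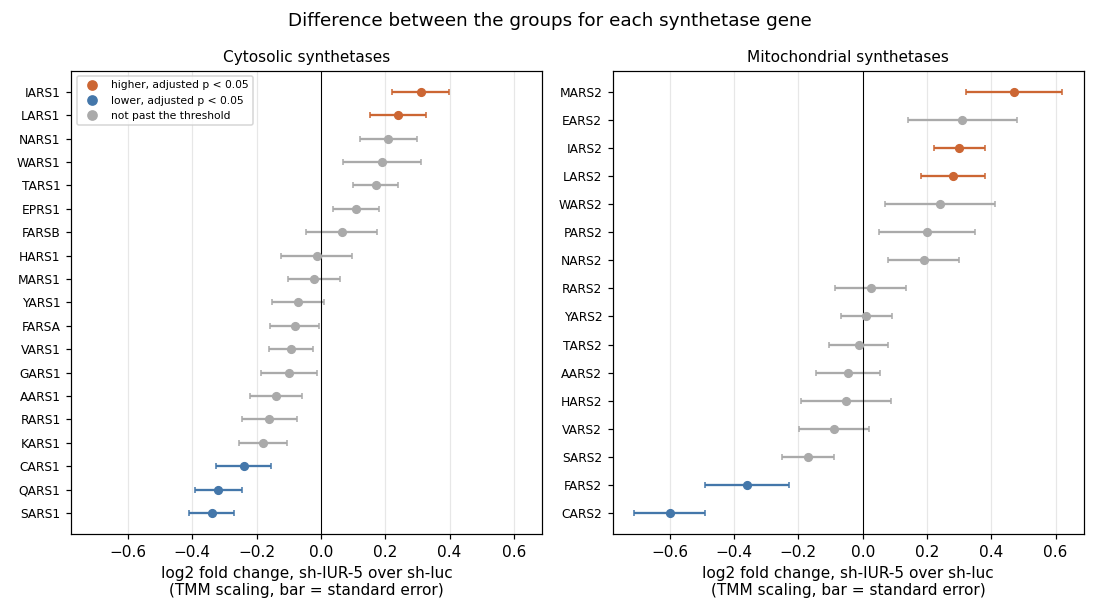
Log2 fold change of each synthetase gene, sh-IUR-5 over sh-luc, with TMM scaling. Points are edgeR estimates, bars are standard errors, and color gives genes past an adjusted p of 0.05 (orange higher, blue lower). IARS1 and LARS1 rise and CARS1, QARS1 and SARS1 fall among cytosolic enzymes, MARS2, IARS2 and LARS2 rise and FARS2 and CARS2 fall among mitochondrial ones. Once trends with GC content and length are removed, IARS1, IARS2, LARS1 and LARS2 no longer pass, and LARS1 changes sign (-0.046).

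Among the cytosolic enzymes 2 of 19 were higher and 3 lower (26.3% in all), with a median log2 fold change of -0.072. SARS1 (NP_006504.2, chr1:109213918-109238182), the seryl enzyme, is also the enzyme that supplies the seryl-tRNA from which selenocysteine is made. Its scaled RPKM was 145, 139 and 135 in sh-luc and 107, 112 and 112 in sh-IUR-5 libraries. All sh-IUR-5 libraries lay below all sh-luc libraries, and the log2 fold change was -0.34 (SE 0.070, adjusted p = 0.000865). QARS1 (NP_005042.1, chr3:49095932-49105130), the glutaminyl enzyme of the complex, had 57.7, 53.1 and 51.9 in sh-luc and 44.1, 42.8 and 43.6 in sh-IUR-5 libraries. It was lower without overlap as well, with a log2 fold change of -0.32 (SE 0.073, adjusted p = 0.00232). CARS1 (NP_001014437.1, chr11:3000922-3057613), the cysteinyl enzyme, had 10.4, 9.79 and 10 in sh-luc and 8.26, 8.63 and 8.66 in sh-IUR-5 libraries. It fell by 0.24 on the log2 scale (SE 0.086, adjusted p = 0.032), but without any single library of the 6 its adjusted p was 0.0529 to 0.0849.

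IARS1 (NP_002152.2, chr9:92210207-92293854), the isoleucyl enzyme and a member of the complex, rose. Its scaled RPKM was 31.4, 38.6 and 35.9 in sh-luc and 38.7, 45.3 and 47.4 in sh-IUR-5 libraries. The lowest sh-IUR-5 library thus lay barely above the highest sh-luc library, and the log2 fold change was 0.31 (SE 0.089, adjusted p = 0.0106). Without sh-luc replicate 1 its adjusted p was 0.0626, and without sh-IUR-5 replicate 3 it was 0.0694. LARS1 (NP_064502.9, chr5:146110566-146182696), the leucyl enzyme of the same complex, which also acts as a leucine sensor upstream of mTORC1, had 10.9, 13.0 and 12.2 in sh-luc and 13.4, 14.3 and 15.1 in sh-IUR-5 libraries. It was higher by 0.24 on the log2 scale (SE 0.086, adjusted p = 0.0346). The adjusted p of LARS1 was 0.153 without sh-luc replicate 1, 0.0783 without sh-luc replicate 3, 0.0904 without sh-IUR-5 replicate 2 and 0.145 without sh-IUR-5 replicate 3.

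Among the mitochondrial enzymes 3 of 16 were higher and 2 lower (31.2% in all), with a median log2 fold change of 0.018. CARS2 (NP_078813.1, chr13:110641412-110713603), the mitochondrial cysteinyl enzyme, had the largest difference of all members. Its scaled RPKM was 6.90, 5.89 and 7.55 in sh-luc and 4.43, 4.88 and 4.16 in sh-IUR-5 libraries. Every sh-IUR-5 library was below every sh-luc library, with a log2 fold change of -0.60 (SE 0.11, adjusted p = 0.000518), and the call was kept in each of the 21 alternative settings with a test. FARS2 (NP_006558.1, chr6:5261044-5829192), the phenylalanyl enzyme, had 4.47, 5.06 and 3.99 in sh-luc and 3.21, 3.69 and 3.69 in sh-IUR-5 libraries. It fell by 0.36 on the log2 scale (SE 0.13, adjusted p = 0.0382), and its adjusted p was 0.0315 without sh-luc replicate 3 but 0.0517 to 0.169 without any of the other 5 libraries.

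IARS2 (NP_060530.3, chr1:220094132-220148041), the mitochondrial isoleucyl enzyme, had 69.1, 83.7 and 76.7 scaled RPKM in sh-luc and 89.1, 93.6 and 99.6 in sh-IUR-5 libraries. It was higher without overlap, by 0.30 on the log2 scale (SE 0.079, adjusted p = 0.00614), and passed without any single library. LARS2 (NP_056155.1, chr3:45388561-45554726), the leucyl enzyme, had 4.86, 4.99 and 4.97 in sh-luc and 5.27, 6.35 and 6.36 in sh-IUR-5 libraries. Its log2 fold change was 0.28 (SE 0.10, adjusted p = 0.039), and it passed without sh-IUR-5 replicate 1 (adjusted p = 0.00501) but in none of the other 5 leave-outs (0.0788 to 0.15). MARS2 (NP_612404.1, chr2:197705369-197708395), the methionyl enzyme, was the least abundant member by summed rows, with 1.67, 1.58 and 2.02 in sh-luc and 2.32, 2.31 and 2.70 in sh-IUR-5 libraries. It rose by 0.47 on the log2 scale (SE 0.15, adjusted p = 0.0179). Its adjusted p was 0.0578 without sh-luc replicate 1, 0.076 without sh-luc replicate 2 and 0.0773 without sh-IUR-5 replicate 3.

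The other 25 genes did not pass, with log2 fold changes of -0.18 to 0.31 and standard errors of 0.068 to 0.17. With the replicate number as a block KARS1, NARS1, RARS1, TARS1 and EARS2 did pass (adjusted p = 0.0291, 0.0155, 0.0429, 0.0401 and 0.0455). With a term for the labelled series these 5 passed again, as did AARS1, WARS1 and SARS2 (adjusted p = 0.0369, 0.0427 and 0.032). In the cytosolic set, NARS1 and TARS1, the asparaginyl and threonyl enzymes, came nearest on the higher side, at 0.21 (adjusted p = 0.0798) and 0.17 (adjusted p = 0.0687). WARS1 lay at 0.19 and EPRS1 at 0.11, while FARSB and FARSA, the paired subunits of the phenylalanyl enzyme, lay at 0.064 and -0.082. HARS1, MARS1, YARS1, VARS1 and GARS1 lay between -0.10 and -0.013. In the mitochondrial set, EARS2 lay at 0.31 (SE 0.17, adjusted p = 0.165), WARS2 at 0.24, PARS2 at 0.20 and NARS2 at 0.19. AARS2, HARS2, RARS2, TARS2, VARS2 and YARS2 lay between -0.089 and 0.025, and SARS2 at -0.17. HARS1 and HARS2 are neighbors on chromosome 5 with opposite strands, and their annotated spans overlap, with starts (140691537 and 140691430) 107 bases apart.

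The members that passed were also counted by role. Of the 7 enzymes of the multisynthetase complex, 2 were higher and 1 lower (42.9%), and of the 12 cytosolic enzymes outside it, 0 were higher and 2 lower (16.7%). Of 18 class I enzymes, 5 were higher and 3 lower (44.4%), and of 16 class II enzymes, 0 were higher and 2 lower (12.5%). All 5 genes that rose, those for isoleucine, leucine and methionine, encode class I enzymes. EPRS1, with a domain of each class, was in neither list. Of 13 cytosolic enzymes listed as ATF4 targets, 2 were higher and 2 lower (30.8%), and of the other 6, 0 were higher and 1 lower (16.7%). The differences between these lists were not tested, and the share over all genes was 45.9%. With GC and length trends removed, 4 of the 5 rises (IARS1, LARS1, IARS2 and LARS2) no longer passed.

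Cytosolic and mitochondrial enzymes for the same amino acid were set side by side by gene name in 15 pairs. FARS2 was paired with both FARSA and FARSB. EPRS1, for glutamate and proline, was not paired with EARS2 or PARS2, and none of these genes passed. In 3 pairs both genes passed, and each time in 1 direction: IARS1 and IARS2 were both higher, LARS1 and LARS2 were both higher, and CARS1 and CARS2 were both lower. In 0 pairs did the genes pass in opposite directions. The cytosolic gene alone passed for serine (SARS1 at -0.34, SARS2 at -0.17), and the mitochondrial gene alone passed for methionine (MARS2 at 0.47, MARS1 at -0.022) and in both phenylalanine pairs. The sign was shared in 10 of the 15 pairs. With GC and length trends removed, IARS1 (0.023), IARS2 (0.032), LARS1 (-0.046) and LARS2 (0.11) no longer passed, while CARS1 and CARS2 stayed lower. CARS1 did not pass when any single library was left out. No 50-base stretch of coding sequence was shared by the genes of any pair (0 in each), so that a read of that length from either gene could not fit both without mismatches. The cytosolic gene had the higher summed level in sh-luc cells in 14 of 15 pairs, with a median ratio of 3.74 and a highest ratio of 35.2 for MARS1 over MARS2. The exception was isoleucine, with a ratio of 0.921 for IARS1 over IARS2. These ratios depend on how reads that fit several rows of a gene were counted, which is not given in the sources used here. IARS1 has 2 rows, with 32.0 and 31.9 RPKM in sh-luc cells, and IARS2 has 1 row, with 69.4.

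**Figure D3:**
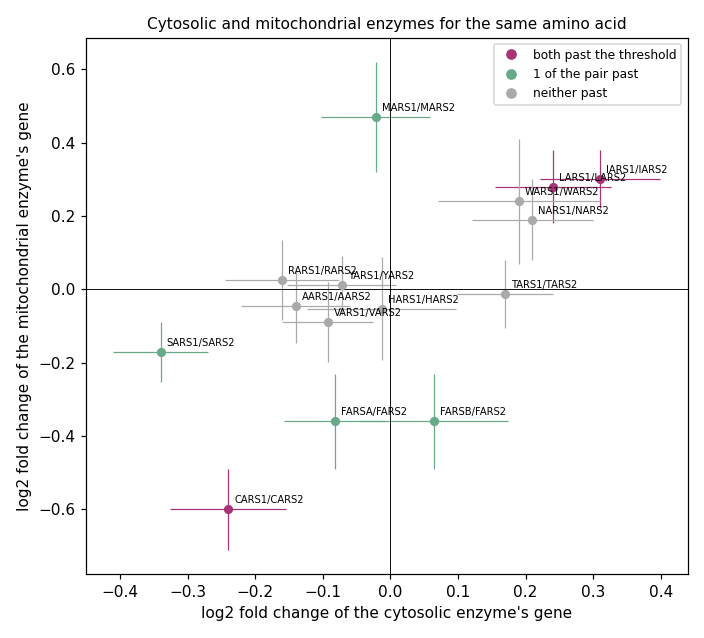
Log2 fold change (sh-IUR-5 over sh-luc, TMM scaling) of the cytosolic enzyme's gene (x axis) against the mitochondrial enzyme's gene for the same amino acid (y axis), with standard errors as bars. Purple pairs have both genes past an adjusted p of 0.05, green pairs have 1 and gray pairs have neither. The isoleucine and leucine pairs sit at upper right and the cysteine pair at lower left. With GC and length trends removed, IARS1, IARS2, LARS1 and LARS2 no longer pass, and LARS1 changes sign (-0.046).

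The groups did not overlap in the 10 genes that passed, so the same direction in both labelled series of libraries was fixed and adds no support. Replicate 1 of each group was labelled as a first series and replicates 2 and 3 as a second, and the labels do not say what a series stands for or whether libraries of a series share a culture. In the first series, with 1 library a group and no test, the 5 higher genes differed by 0.12 to 0.47 and the 5 lower genes by -0.64 to -0.33 on the log2 scale. In the second series the values were 0.22 to 0.48 and -0.57 to -0.19.

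Scaling decided much of the balance between higher and lower. When the libraries were scaled to the total reads of the tested rows instead of by TMM, the median log2 fold change of all genes moved to 0.20, with 39.3% of genes higher and 12.0% lower. Under that scaling 16 synthetase genes (45.7%) were higher and only CARS2 (2.86%) was lower, and CARS1, QARS1, SARS1 and FARS2 no longer passed. The members' median was then 0.19, close to the shift of all genes. The TMM values give each gene relative to the bulk of the rows.

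Base composition and length differed among these genes. The median GC content of the coding sequence was 52.0% over all genes. Of the genes that rose, IARS1, IARS2 and LARS1 had 44.3%, 44.4% and 42.1%, LARS2 had 51.2% and MARS2 had 57.7%, the highest of the 10. Of the genes that fell, SARS1 had 51.8%, FARS2 52.8%, CARS1 53.3%, QARS1 55.1% and CARS2 56.0%. The cytosolic rows were also longer, with a median of 2172 bases against 1212 for all genes. With the trends of the fold change along GC and length removed (8764 genes, 18.7% higher and 22.8% lower), 1 member was higher (2.86%), MARS2, and 10 were lower (28.6%). IARS1 lay at 0.023, IARS2 at 0.032, LARS2 at 0.11 and LARS1 at -0.046, and none of these passed. CARS1, QARS1, SARS1, CARS2 and FARS2 stayed lower, and AARS1, EPRS1, GARS1, KARS1 and RARS1 joined them. The falls, and the rise of MARS2, were therefore kept when these trends were removed, while the rises of the isoleucyl and leucyl genes were not.

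**Figure D4:**
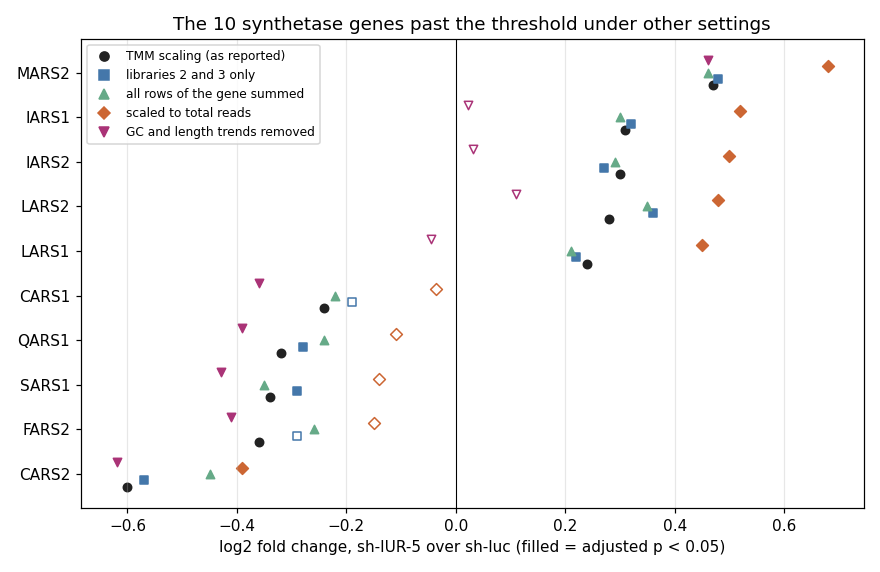
Log2 fold change (x axis) of the 10 synthetase genes past the threshold under TMM scaling, with libraries 2 and 3 of each group only, with all rows of a gene summed, with scaling to total reads, and with GC and length trends removed. Filled symbols have an adjusted p under 0.05. CARS2 is filled in every setting, total-read scaling shifts all genes to the right, and IARS1, IARS2 and LARS2 approach 0 and LARS1 crosses it (-0.046) once GC and length trends are removed.

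Isoforms of the synthetases had rows of their own, 98 in all and all 98 above the minimum level, of which 14 were higher (14.3%) and 12 lower (12.2%), against 19.2% and 18.1% of all 38204 rows. The rows of 9 of the 25 genes with more than 1 row differed in call. In QARS1 the rows NP_005042.1 and NP_001259002.1 fell by 0.32 and 0.34, while XP_016862454.1 lay at 0.0045 (adjusted p = 0.97). In CARS2 the better covered rows were lower, at -0.60 and -0.58, and the others lay at 0.083 and -0.048. In CARS1 the rows lay at -0.24, -0.33, -0.11 and -0.10, and the first 2 passed. FARS2 had 2 of 7 rows lower (-0.36 and -0.57), and HARS1 had 1 of 7 lower (-0.33, adjusted p = 0.0318). LARS1 had 3 of 5 rows past the threshold, all 5 between 0.19 and 0.24. Both further rows of TARS1 were higher, at 0.23 and 0.20 (adjusted p = 0.0174 and 0.0409), and a short row of WARS2 was higher, at 0.64 (adjusted p = 0.0493).

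RARS2, the mitochondrial arginyl enzyme, was the 1 gene whose rows passed in opposite directions. Its most-read row, NP_064716.2, had 7.04, 8.68 and 7.13 scaled RPKM in sh-luc and 7.39, 7.50 and 8.37 in sh-IUR-5 libraries, with a log2 fold change of 0.025. XP_011534251.1 was higher (0.30, adjusted p = 0.0355), and XP_016866563.1 and XP_016866562.1 were lower (-0.35 and -0.46, adjusted p = 0.0112 and 0.00236). How reads that fit several isoforms were assigned is not given in the sources used here, so the level of a single row is uncertain. With all rows of a gene summed, each of the 10 genes above still passed.

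The rows of the remaining genes with mixed calls are given by their most-read row. TARS1 had 44.6, 45.6 and 44.7 scaled RPKM in sh-luc and 49.7, 50.6 and 51.4 in sh-IUR-5 libraries, without overlap. HARS1 had 7.37, 6.53 and 6.80 against 5.90, 7.12 and 7.62, and WARS2 had 2.84, 2.11 and 2.40 against 2.67, 2.94 and 3.16. These groups overlapped. For KARS1 the row of the mitochondrial form, NP_001123561.1, lay at -0.17 and that of the cytosolic form at -0.18. For GARS1 the rows with and without the mitochondrial leader lay at -0.10 and -0.12.

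Beyond the enzymes, 31 genes that act with them were read from the same fit, and 4 were higher and 9 lower (41.9%, against 45.9% of all genes). Of the 3 scaffold proteins of the complex, AIMP1 was lower (scaled RPKM 22.3, 24.7 and 23.3 in sh-luc, 17.9, 20.1 and 18.1 in sh-IUR-5, log2 fold change -0.32, adjusted p = 0.00932). AIMP2 lay at -0.13 and EEF1E1, the most abundant, at -0.075. Of the 3 genes that clear mischarged tRNA, DTD1, the D-aminoacyl-tRNA deacylase, was lower with 89.8, 86.0 and 84.5 in sh-luc and 50, 53.5 and 50.3 in sh-IUR-5 libraries. Its log2 fold change was -0.76 (SE 0.079, adjusted p = 1.11e-06), larger than that of any synthetase. AARSD1, which clears mischarged alanine tRNA, was lower as well (-0.56, adjusted p = 0.000303), and DTD2 lay at 0.23 and did not pass.

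Charged tRNA is brought to the ribosome by EEF1A1, which is reloaded with GTP by a complex that holds EEF1B2, EEF1D and EEF1G. These 3 subunits were lower, at -0.53, -0.62 and -0.36 (adjusted p = 6.73e-05, 2.03e-05 and 0.000218). EEF1A1 had 12157, 11969 and 11675 scaled RPKM in sh-luc and 11082, 11618 and 11520 in sh-IUR-5 libraries, a log2 fold change of -0.065 that did not pass. In the mitochondrion the same steps are run by TUFM and TSFM, and both were lower, at -0.32 (adjusted p = 0.0018) and -0.35 (adjusted p = 0.00939). GATC, a subunit of the amidotransferase that makes mitochondrial glutaminyl-tRNA in place of a glutaminyl enzyme, was higher (0.29, adjusted p = 0.0492). In the edgeR fit with all rows of a gene summed, GATC did not pass (0.28, adjusted p = 0.0743). Its partners GATB and QRSL1 lay at -0.19 and -0.011 and did not pass.

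Of 8 genes of tRNA processing and export, XPOT, the tRNA exporter, was higher with 18.6, 19.9 and 18.8 in sh-luc and 25.8, 26.1 and 27.5 in sh-IUR-5 libraries (0.47, adjusted p = 9.9e-05). TSEN15, a subunit of the splicing endonuclease, was higher too (0.50, adjusted p = 0.00559). SEPSECS, which turns phosphoseryl-tRNA into selenocysteyl-tRNA, was lower on its most-read row (-0.74, adjusted p = 1.26e-05), but its other rows lay at 0.38 (adjusted p = 0.039), 0.019 and 0.34. PSTK, SECISBP2 and EEFSEC of the same pathway lay at -0.13, -0.14 and -0.12 and did not pass.

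Uncharged tRNA is sensed by the kinase EIF2AK4 (GCN2) with its coactivator GCN1, and signals through ATF4. GCN1 was higher (24.9, 24.4 and 26.4 in sh-luc, 32.1, 30.9 and 30 in sh-IUR-5, log2 fold change 0.30, adjusted p = 0.00272), while EIF2AK4 lay at 0.12 and IMPACT, an inhibitor of the kinase, at 0.0026. Of 10 genes of the ATF4 response, 8 reached the minimum level, and 2 of these were higher and 3 lower (62.5%, against 45.9% of all genes). ATF4 itself was lower, with 189, 161 and 145 scaled RPKM in sh-luc and 124, 120 and 119 in sh-IUR-5 libraries (-0.45, adjusted p = 0.000484). PHGDH of serine synthesis and ASNS were lower (-0.39 and -0.20, adjusted p = 0.00395 and 0.0495), and PSAT1 of serine synthesis and the pseudokinase TRIB3 were higher (0.34 and 0.74, adjusted p = 0.0137 and 0.0126). DDIT3, SLC7A11 and SESN2 lay at -0.39, 0.35 and 0.23 and did not pass. On their most-read rows, the synthetases listed as ATF4 targets and the other response genes thus each held members that rose and members that fell. When all rows of a gene were summed, PSAT1 and TRIB3 no longer passed (0.28 and 0.33, adjusted p = 0.0645 and 0.0864). DDIT3 then passed as lower (-0.51, adjusted p = 0.00742). ATF4, PHGDH and ASNS stayed lower (adjusted p = 0.00139, 0.00118 and 0.0293). Of the 18 genes in these related lists that passed, 17 kept their sign with scaling to total reads (ASNS lay at 0.0038), where AIMP1, ASNS, PHGDH, TSFM and TUFM no longer passed. With GC and length trends removed all 18 kept their sign, and PSAT1 no longer passed.

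**Figure D5:**
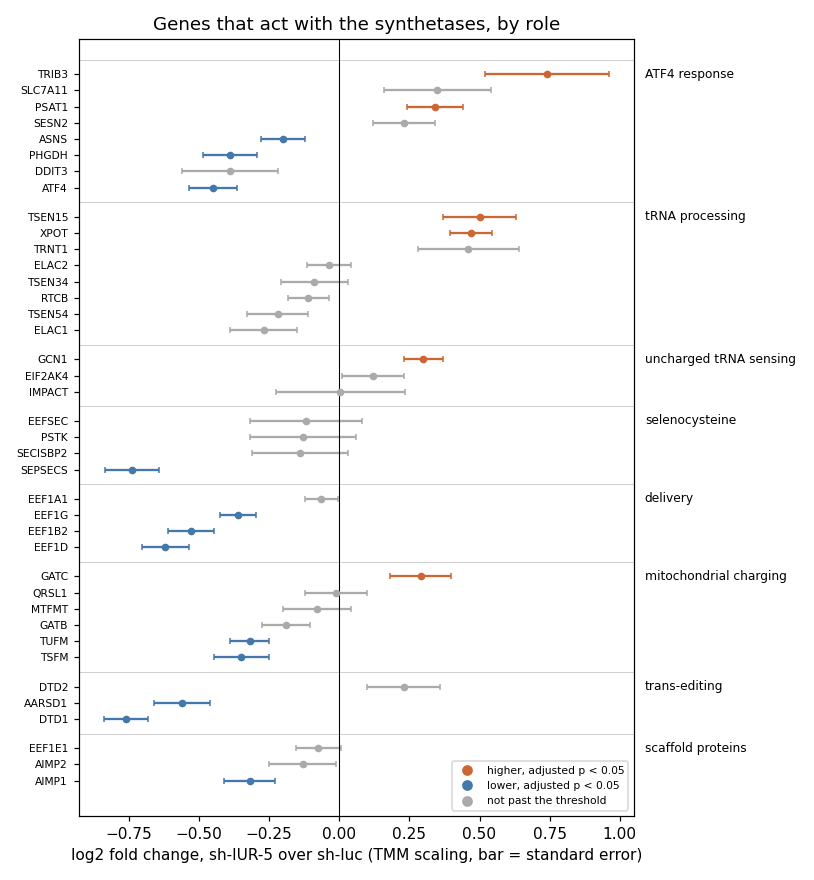
Log2 fold change (sh-IUR-5 over sh-luc, TMM scaling) with standard errors of the genes that act with the synthetases, grouped by role. Orange genes are higher and blue genes lower at an adjusted p of 0.05. EEF1B2, EEF1D and EEF1G of the reloading complex, the deacylase DTD1 and AARSD1 lie to the left. XPOT and TSEN15 lie to the right, and the ATF4 response spreads to both sides.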

How the data were processed

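Total RNA of K562 cells was sequenced in 6 libraries. The submitters' processing notes name CASAVA 1.8, Trimmomatic 0.32, Bowtie2 2.1.0, SAMtools 0.1.19 and hg38. The authors deposited read counts per RefSeq protein accession (109018 rows, not normalized) and RPKM, which equal reads divided by row length and library total (largest deviation 5.1e-11). The row lengths were deposited by the authors too, and 99.8% are multiples of 3, as coding lengths are. Among the members' rows the exception is the most-read row of VARS1 (3557 bases), whose RPKM may not be per coding length. The authors' table of the comparison (pooled counts and RPKM, fold changes, p- and q-values) was not used. Columns of samples not listed here numbered 0. How reads shared by several isoforms were counted is not given in the sources used here.

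Accessions were matched to symbols through RefSeq (GRCh38.p14; 64.7% of rows), and gene positions are those of the hg38 annotation. Rows with a mean RPKM of at least 1 were tested with edgeR 4.0.16 (R 4.3.3, TMM, quasi-likelihood test, two-sided, no covariate, Benjamini-Hochberg over 38204 rows, threshold 0.05). A fold change is the estimated one on the log2 scale, and its SE is the size of the log2 value divided by the square root of F. The biological coefficient of variation was 8.05%. A count of 3 reads on 1 kb equals 0.0953 to 0.1427 RPKM, so the members, with 422 to 56986 reads over the 6 libraries lay above the floor. Where only the spread between these libraries is known, p-values measure that spread. An exact permutation test of 3 against 3 libraries cannot go below p = 0.1 and was not used.

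Every member is accounted for. Values in each library are given for the genes past the threshold (up to 5 a direction and compartment), the 3 with the highest mean RPKM and those whose isoform rows differ. Members of the related lists are named where they passed or were the most abundant. A gene of the tRNA processing list is not reported here and was left out of its counts. Other genes that did not pass, such as KARS1, DTD2 and GATB, were named after their values were seen. The members and lists were chosen with earlier results of these data known. Alternatives included DESeq2 1.42.0, limma 3.58.1 on log2(RPKM + 0.1), and in turn + 1 and + 0.01, scaling to total reads, other minimum levels, summed rows, leaving out libraries, and a fit with smooth trends along GC and length (mgcv 1.9.3) removed. The scripts were tested on simulated data.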

Additional observations from a re-analysis of the deposited data

How the results depend on the processing

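The counts of synthetase genes were 2 cytosolic higher, 3 cytosolic lower, 3 mitochondrial higher and 2 mitochondrial lower, with medians of -0.072 and 0.018. Total reads gave 8, 0, 8 and 1, with medians of 0.13 and 0.23, and MARS1 passed at 0.18 after -0.022, while limma on log2(RPKM + 0.1), + 1 and + 0.01, where RPKM is relative to the total reads of all rows, gave 6, 0, 5 and 1, with medians of 0.12 and of 0.21, 0.20 and 0.21. In these 4 settings 13 or 14 members changed sign without passing in either fit. With GC and length trends removed 0 cytosolic genes were higher, 8 lower and 1 mitochondrial gene higher, the medians were -0.15 and -0.061, EPRS1 passed at -0.19 and LARS1 lay at -0.046. With the replicate block as well, 0 cytosolic genes were higher and 12 lower, with a median of -0.15. In the mitochondrial set 2 were then higher and 2 lower, with a median of -0.06. EPRS1 lay at -0.19 in that fit, FARSB at -0.15 and LARS1 at -0.044. The cause of these shifts was not tested.

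The labels place replicate 1 of both groups in a first series but give no further pairing by replicate number. Deviations of same-numbered libraries from the group means correlated at 0.48, 0.19 and -0.016, and sh-luc replicate 2 correlated best with sh-IUR-5 replicate 3 (0.41), so the numbers were not taken to pair the libraries. The replicate block gave 4 cytosolic higher and 5 lower, 15 members in all (53.3% of all genes). A term for the labelled series gave 5 and 6, 18 members in all (56.4% of all genes). The second series alone gave 4 cytosolic higher and 1 mitochondrial lower. DESeq2 gave 1 cytosolic higher, 1 mitochondrial higher and 1 mitochondrial lower. With no minimum level 1 cytosolic gene was higher and 5 lower, with medians of -0.13 and -0.037, and at a mean of at least 5 RPKM, where 5 members, MARS2 and FARS2 among them, have no value, 5 cytosolic genes were higher and 1 mitochondrial gene lower, with medians of 0.042 and 0.13. With 1 accession per gene 1 mitochondrial gene was lower. At an adjusted p of 0.01, 0 cytosolic genes were higher, 1 mitochondrial higher and 1 mitochondrial lower. Size factors of DESeq2 in edgeR and summed rows moved none of these counts by over 1.5 times.

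Leaving out 1 library gave 0 to 5 cytosolic higher, 1 to 4 mitochondrial higher and 1 to 2 mitochondrial lower. The members that passed numbered 4 (11.4%, against 39.6% of all genes) without sh-IUR-5 replicate 3, 5 (14.3%, against 40.5%) without sh-luc replicate 1, 6 (17.1%) without sh-luc replicate 2 (40.5%) or sh-IUR-5 replicate 2 (40.2%), 7 (20%, against 37.6%) without sh-luc replicate 3 and 13 (37.1%, against 45.3%) without sh-IUR-5 replicate 1. CARS2, SARS1, QARS1 and IARS2 passed in all 6. MARS2 and LARS2 ranged from 0.40 to 0.58 and 0.23 to 0.37, IARS1 and LARS1 from 0.23 to 0.40 and 0.18 to 0.30, and CARS1 and FARS2 from -0.26 to -0.22 and -0.44 to -0.27. The median SE was 0.11 in the mitochondrial set, 0.081 in the cytosolic set and 0.11 over all genes, and the part of depth in it was not tested.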
